A study of Mus musculus with 54 samples.

Results

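The MYC and MXD network was followed through its 9 measured genes, Myc, Mycn, Mycl, Max, Mxd1, Mxd3, Mxd4, Mxi1 and Mnt, among 47729 genes counted in mouse cXEN cells. The genes were taken as a named list and found by Ensembl ID, and each matched 1 ID. The list was chosen by a measured value, the fall of Myc RNA within 6 h of Sox17 degradation, so the values of that contrast describe the choice and are given without a test. All 9 genes passed the filter on low counts, with between 25 and 10020 reads in a library.

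MYC, MYCN and MYCL are transcription factors that bind DNA as partners of MAX, at the E-box CACGTG, and raise transcription of genes for ribosome production, metabolism and growth. The MXD proteins, MXI1 (also called MXD2) and MNT also bind as partners of MAX but recruit SIN3 and histone deacetylase corepressors, so the balance of MYC and MXD partners is thought to set the output of shared targets. In many lineages Mycn and Myc mark dividing progenitors, and several Mxd genes and Mxi1 rise as cells differentiate.

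cXEN cells are cultured stem cells of extraembryonic endoderm type, the lineage that lines the yolk sac. RNA-seq covered 40 libraries in 20 groups of 2, and 14 chromatin samples of the series were not analysed here. Cells of the Gata6-FKBP line or of the Sox17-FKBP line, in which the named transcription factor carries a degron tag, were given DMSO (0 h) or 500 nM dTAGV1, a molecule that sends the tagged protein to degradation, for 6, 24, 48, 72 or 96 h. Gata6-FKBP;FoxA2-/- and Sox17-FKBP;FoxA2-/- cells were sampled with DMSO at 0 h and after 48 h of dTAGV1, and untagged parental cXEN cells formed 1 group. These cells grew in medium with 15% serum. A BMP4 series, whose genotype label is the Gata6-FKBP line while its titles name only XEN, was held in N2B27 medium with 1% serum on gelatin (0 h) and then in serum-free N2B27 with 25 ng/ml BMP4 for 24 or 72 h. The labels do not say how many clones each line comprises, nor whether the replicates were grown apart, so the tests see the spread of these libraries and no more, and that spread may be technical.

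Libraries held 16.2 to 42.5 M gene reads, with a median of 21.6 M. The variance between both libraries of a group was 1.48 to 57.3 times that of counting (chi-square per degree of freedom). It was highest for BMP4 at 24 h, followed by Sox17 degradation at 24 h (38.9). All 10 primitive endoderm markers were detected in every library, though Col4a1 ran from 0.914 to 16020 CPM. Of 5 pluripotency markers, Nanog and Sox2 were at 0 in 25 and 36 of the 40 libraries, and Pou5f1, Zfp42 and Dppa4 at 0 in none, with Zfp42 at 8.30 to 31.1 CPM; their sum ran from 10.8 to 45.5 CPM. Of the trophoblast markers, Cdx2 and Tfap2c were at 0 in 32 and 33 libraries and Krt7 in 2, with up to 32.5 CPM. A list of 6 fibroblast genes summed to 1275 and 1682 CPM in the parental cells and to 5.65 CPM or less elsewhere. The sum was mostly of the collagen genes Col1a1, Col1a2 and Col3a1, with up to 728.9, 733.3 and 215.5 CPM in a library. Thy1, Postn and Dcn reached at most 0.0958, 0.822 and 3.25 CPM. Degradation removes protein, so the RNA of Gata6 or Sox17 does not check the labels. Foxa2 RNA does not check them either: single libraries held 76.0 to 127.9 CPM in the 4 FoxA2-/- groups and 98.5 to 147.9 CPM in the 16 others. In bulk RNA, fewer cells of a type and less RNA per cell cannot be told apart.

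The 9 genes lie on 8 chromosomes (mm10, from RefSeq). Myc lies at chr15:61985341-61990361, Mycn at chr12:12936093-12941836, Mycl at chr4:122995588-123002490 and Max at chr12:76937269-76962323. Mxd1 lies at chr6:86647044-86669234, Mxd3 at chr13:55325170-55329900, Mxd4 at chr5:34176580-34187710, Mxi1 at chr19:53310128-53373293 and Mnt at chr11:74830806-74845725. Mxd1 overlaps Gm38850, Mxd3 overlaps Prelid1 and Mxi1 overlaps Gm30541, and the strand setting of the counting is not given in the sources used here, so shared reads cannot be assigned and the levels of these 3 genes are uncertain to that extent.

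Promoter sequences were available from RefSeq (GRCm38.p6, the mm10 assembly) for 8 of the 9 genes, in 10 windows of 300 bases from 250 bases before to 50 after a transcript start. The E-box CACGTG was found in the windows of Max, Mxd4 and Mnt, against 7.15% of all 32851 promoter windows. The forkhead-type motif TGTTTAC was found in 1 window of Mxi1 (3.65% of all windows), the SOX-type motif ACAAT in those of Mycl and Mxd4 (31% of all) and the GATA-type motif GATAA in that of Mxd1 (25.4%). Both strands were searched, the matches shown do not overlap each other, and a match is only a run of letters. The 250 bases upstream of the start are shown for Mnt and Mxd4, the repressor genes with an E-box, and for Mycn, the MYC gene that rose in both FoxA2-/- lines, which held none of the 4 motifs. Capitals mark the E-box and, in Mxd4, a SOX-type match on the other strand.
Mnt, chr11:74830674-74830923, plus strand: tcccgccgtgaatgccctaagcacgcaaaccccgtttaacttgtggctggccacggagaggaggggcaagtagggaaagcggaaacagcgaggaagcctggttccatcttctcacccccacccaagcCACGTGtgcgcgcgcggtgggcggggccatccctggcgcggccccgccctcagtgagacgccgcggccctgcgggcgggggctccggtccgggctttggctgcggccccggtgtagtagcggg
Mxd4, chr5:34187711-34187960, minus strand: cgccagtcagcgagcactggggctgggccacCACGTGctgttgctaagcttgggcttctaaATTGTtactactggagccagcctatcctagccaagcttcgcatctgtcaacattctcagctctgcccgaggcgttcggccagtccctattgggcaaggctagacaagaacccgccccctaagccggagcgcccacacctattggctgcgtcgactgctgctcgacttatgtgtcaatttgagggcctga
Mycn, chr12:12941837-12942086, minus strand: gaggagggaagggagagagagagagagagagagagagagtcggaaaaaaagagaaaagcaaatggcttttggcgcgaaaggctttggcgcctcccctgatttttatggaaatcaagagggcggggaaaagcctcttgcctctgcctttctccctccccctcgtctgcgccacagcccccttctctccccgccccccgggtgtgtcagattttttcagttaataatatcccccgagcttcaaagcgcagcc

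Levels are given as TMM-scaled CPM, reads of a gene relative to the scaled library total, a unit that does not correct for gene length, so they are compared between groups for 1 gene and not between genes. Group means spanned 19.4-fold for Myc, 12.7-fold for Mycl, 8.32-fold for Mycn, 3.82-fold for Mxd3, 3.72-fold for Mxd4, 3.64-fold for Mxi1, 3.05-fold for Mnt, 2.35-fold for Mxd1 and 1.4-fold for Max, the shared partner. The 3 MYC genes thus had the widest ranges of the 9 and Max the narrowest. When the 20 groups were ordered by level, the libraries of neighbouring groups overlapped in 9 of 19 pairs for Myc and Mxi1, 10 for Mycn, 12 for Mnt, 13 for Mycl, 14 for Mxd1 and Mxd4 and 15 for Max and Mxd3.

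Myc stood highest in untreated Sox17-FKBP;FoxA2-/- cells, at 51.4 and 57.7 CPM in its 2 libraries, followed by the parental cells (47.0 and 49.3 CPM), untreated Sox17-FKBP cells (40.8 and 43.0 CPM) and Sox17-FKBP;FoxA2-/- cells after 48 h (34.96 and 37.6 CPM). These 4 groups did not overlap one another or any other. The Gata6-FKBP groups with and without the FoxA2 mutation and Sox17-FKBP cells at 6 and 96 h lay between 20.6 and 32.1 CPM, and apart from the 24 h Gata6 libraries (30.9 and 32.1 CPM) each overlapped a neighbour in the order. Sox17-FKBP cells at 24 to 72 h lay between 14.8 and 18.7 CPM. The BMP4 series held the lowest values, at 5.60 and 7.65 CPM at 24 h, 3.24 and 3.89 CPM at 0 h and 2.84 and 2.77 CPM at 72 h, below every other library.

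**Figure D1:**
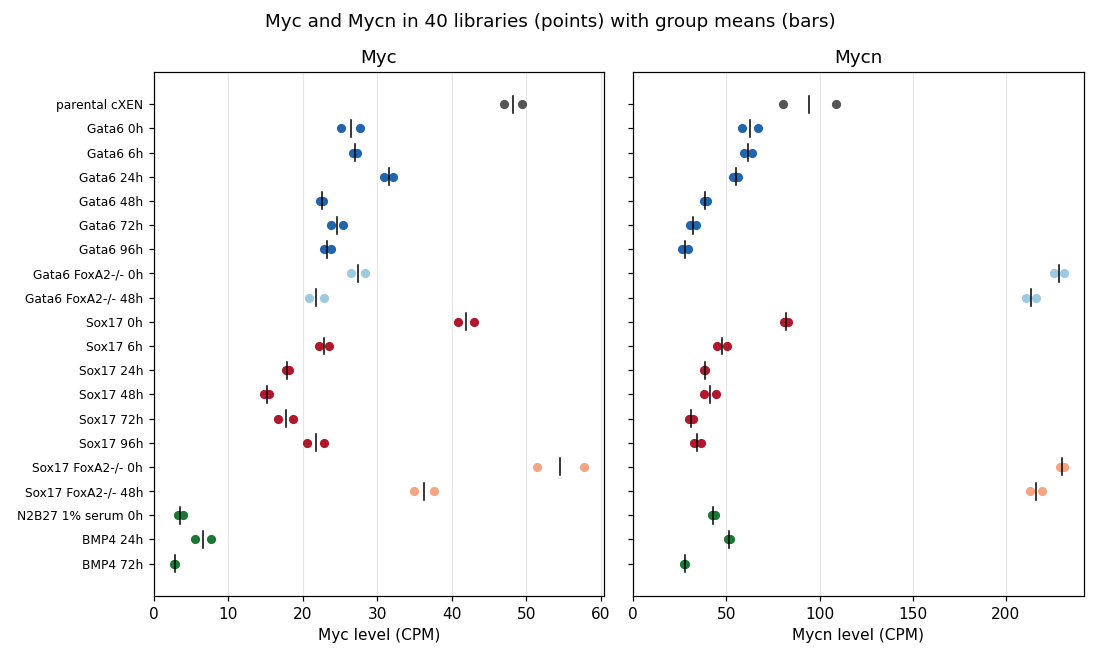
Myc and Mycn levels (CPM, linear axes) in each of the 40 libraries (points) with group means (bars), by group. Myc is lowest in the BMP4 series, under 8 CPM throughout, and Mycn is highest in the 4 FoxA2-/- groups, above 210 CPM in every library.

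In untreated cells, Mycn was 62.7 CPM on average in the Gata6-FKBP line (58.5 and 66.9 CPM) and 82.2 CPM in the Sox17-FKBP line (83.4 and 81.1 CPM). The 4 FoxA2-/- groups held 210.5 to 231.4 CPM, with no overlap with the other 16, whose highest library was a parental one at 108.6 CPM. Mycl ran from 0.719 CPM in Sox17-FKBP;FoxA2-/- cells at 48 h to 11.1 CPM in Sox17-FKBP cells at 24 h. Both Sox17-FKBP;FoxA2-/- groups, at 0.719 to 1.00 CPM, lay below the remaining 18.

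After Sox17 degradation, the contrast that chose the list, Myc fell from 40.8 and 43.0 CPM at 0 h to 23.5 and 22.1 CPM at 6 h, a log2 change of -0.88 ± 0.09 (SE). Mycn, at 45.3 and 50.5 CPM at 6 h, changed by -0.78 ± 0.10. The other 7 genes had log2 changes between -0.12 and 0.27, for Mxi1 and Mycl. In this contrast 1.74% of all genes tested (0.991% higher and 0.752% lower) had an adjusted p under 0.05 (edgeR's quasi-likelihood test with Benjamini-Hochberg adjustment, used throughout), and nothing is read from it for the 9 genes.

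Later in the Sox17 course Myc is again only described, since its 0 h libraries are those that chose the list. It reached its lowest mean of the course at 48 h, 14.8 and 15.4 CPM (log2 change -1.47 ± 0.10), and stood at 22.9 and 20.6 CPM at 96 h (-0.95 ± 0.09). The step from 24 to 96 h uses none of the 0 h libraries, and over it Myc rose by 0.28 ± 0.10 (adjusted p = 0.0282). That call was lost without either 24 h library (adjusted p = 0.0947 and 0.0849) or without the first 96 h library (adjusted p = 0.225), and 37.3% of all genes changed over that step. Max (-0.24, adjusted p = 0.00799) and Mxi1 (0.60, adjusted p = 2.6e-07) changed too, 3 of the 9, and the call of Max was lost without the first 24 h library (0.281).

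Mycn fell through the whole Sox17 course, the log2 change being -1.10 ± 0.10 at 24 h (adjusted p = 3.85e-09), -0.995 ± 0.10 at 48 h (8.52e-09), -1.41 ± 0.10 at 72 h (9.83e-12) and -1.25 ± 0.10 at 96 h (6.6e-11). Its libraries fell to 29.7 and 32.1 CPM at 72 h and never overlapped those of 0 h. Mycl took another path. It stood at 7.92 and 8.44 CPM at 0 h, 11.1 and 10.8 CPM at 24 h, 3.24 and 3.72 CPM at 48 h and 9.14 and 8.14 CPM at 96 h. Its fall at 48 h (-1.23 ± 0.16, adjusted p = 9.19e-07) passed the test without any 1 library, whereas its rise at 24 h (0.42 ± 0.14, adjusted p = 0.0285) and its fall at 72 h (-0.40 ± 0.15, adjusted p = 0.0362) were each lost without any 1 of the libraries compared (adjusted p from 0.0531 to 0.195). At 96 h the change was 0.08 and did not pass.

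**Figure D2:**
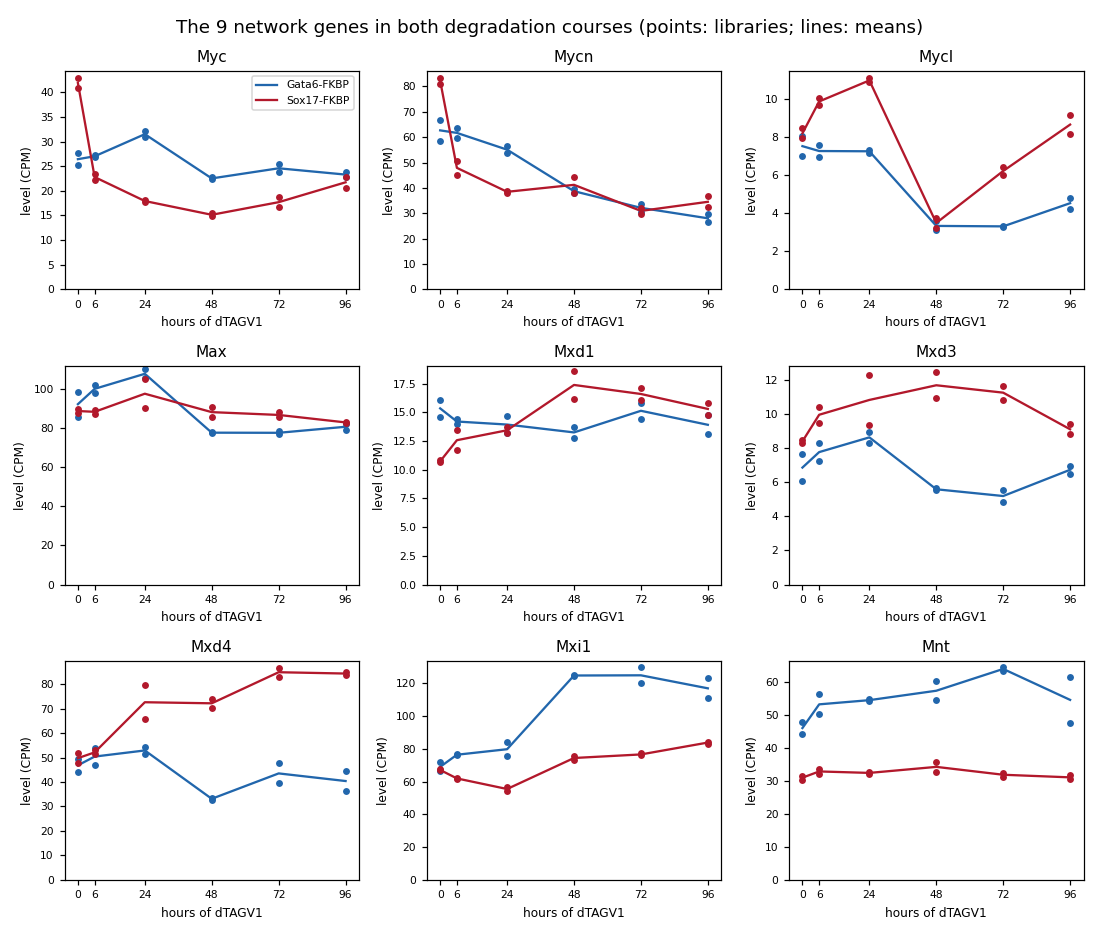
Levels (CPM, linear axes from 0) of the 9 genes against hours of dTAGV1 in the Gata6-FKBP line (blue) and the Sox17-FKBP line (red). Points are libraries and lines join the means of 2. Mxi1 reaches 124.9 CPM at 48 h of Gata6 degradation, and Mxd4 reaches 84.9 CPM at 72 h of Sox17 degradation.

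Among the MXD repressors, Mxd4 and Mxd1 rose during Sox17 degradation. Mxd4 stood at 47.6 and 51.8 CPM at 0 h and at 83.1 and 86.8 CPM at 72 h, with log2 changes of 0.55 ± 0.10 at 24 h, 0.54 ± 0.10 at 48 h (adjusted p = 0.000184), 0.77 ± 0.10 at 72 h and 0.76 ± 0.10 at 96 h (adjusted p = 8.89e-07). With the spread from the 24 h and 0 h libraries alone, the 24 h calls of Mxd4 (adjusted p = 0.0776) and of Mxi1 (0.0833), were lost. Mxd1, a repressor linked to differentiation in several lineages, rose from 10.7 and 10.8 CPM to 16.1 and 18.6 CPM at 48 h (0.70 ± 0.09, adjusted p = 9.92e-07). It was also higher at 72 h (0.63) and 96 h (0.51), and its smaller rise at 24 h (0.32, adjusted p = 0.0105) was lost without replicate 1 of 0 h (adjusted p = 0.062) or of 24 h (0.0996).

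Mxd3, an MXD gene known from dividing cells, rose by 0.48 ± 0.16 at 48 h (adjusted p = 0.0278) and 0.42 ± 0.16 at 72 h (adjusted p = 0.0446). Leaving out 1 library ended the first call for 3 of the 4 libraries and the second for all 4 (adjusted p from 0.0854 to 0.195). Mxi1 fell by 0.28 on the log2 scale at 24 h (adjusted p = 0.00386) and was above 0 h at 72 h (0.19, adjusted p = 0.0315, lost without any 1 library, the adjusted p then running from 0.0867 to 0.131) and at 96 h (0.32, adjusted p = 0.000418). Max and Mnt, the widely expressed MAX-binding repressor, did not pass at any time from 24 to 96 h, with changes between -0.10 and 0.15.

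In counts, of the 8 genes other than Myc, 5 changed at 24 h (30.4% of all genes tested), 5 at 48 h (30.9%), 6 at 72 h (36.1%) and 4 at 96 h (40.5%). At 72 h only Mycn, Mxd1 and Mxd4 remained called whichever library was left out, 3 of the 6. A list of 8 proliferation genes moved with these times, from 2705 and 2633 summed CPM at 0 h to 1873 and 1798 at 96 h. The trophoblast list summed to 3.04 and 2.48 CPM at 0 h, 1.09 and 1.41 at 48 h and 30.2 and 32.8 at 96 h. Krt7 alone reached 32.5 CPM, while Hand1, the next highest of that list, reached at most 1.63 CPM in any library. The pluripotency list went up, from 29.0 and 30.7 to 41.4 and 39.8 CPM. The part of these lists in the results was not tested.

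Degrading Gata6 gave another sequence. At 6 h none of the 9 genes changed by edgeR or by DESeq2, with unadjusted p under 0.05 for 2 of them, Mxi1 and Mnt, against 13.9% of all genes called (3.43% higher and 10.4% lower). That share rests on single libraries, since 2027 genes were called but 14 without replicate 1 of 0 h. At 24 h Max (0.22 ± 0.07, adjusted p = 0.0199) and Mxi1 (0.21 ± 0.07, adjusted p = 0.0348) rose, 2 of 9 against 21.4% of all genes (7.11% higher and 14.3% lower), and both calls were lost without the first 0 h library (adjusted p = 0.421 and 0.37) or the first 24 h library (0.136 and 0.332). DESeq2 called 4 of the 9 at 24 h, Myc (adjusted p = 0.0438) and Mnt (0.0356) being added. Over all genes the 24 h calls fell from 3131 to 319 without replicate 1 of 0 h. The variance between the Gata6-FKBP 0 h libraries was 13.7 times that of counting.

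At 48 h of Gata6 degradation 6 of the 9 genes changed (40.1% of all genes). Mxi1 showed the largest rise, from 66.3 and 71.7 CPM to 125.1 and 124.6 CPM (0.86 ± 0.07, adjusted p = 1.7e-10). It stayed high at 72 h (129.9 and 120.1 CPM) and at 96 h (110.8 and 123.2 CPM, 0.76 ± 0.07), in every case clear of the libraries at 0 h. Mnt rose from 44.3 and 47.7 CPM to 60.2 and 54.5 CPM at 48 h (0.32 ± 0.09, adjusted p = 0.00532) and to 63.3 and 64.6 CPM at 72 h (0.48 ± 0.09, adjusted p = 8.99e-05). The 48 h call of Mnt was lost without replicate 1 of 0 h (adjusted p = 0.0633) or of 48 h (0.0859), and at 96 h, with 47.5 and 61.6 CPM, its change of 0.25 fell to 0.05 without the second 96 h library.

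Mycn fell steadily after Gata6 loss, to 37.99 and 39.4 CPM at 48 h (adjusted p = 3.36e-06), 33.6 and 30.6 CPM at 72 h (-0.96 ± 0.10) and 29.5 and 26.5 CPM at 96 h (-1.16 ± 0.10, adjusted p = 9.15e-10). Mycl fell from 6.99 and 8.03 CPM to 3.57 and 3.09 CPM at 48 h (-1.17 ± 0.18, adjusted p = 7.39e-06) and stood at 4.81 and 4.22 CPM at 96 h (-0.73 ± 0.17, adjusted p = 0.00121). Myc, by contrast, lay at 22.3 to 25.4 CPM in the 6 libraries of 48 to 96 h against 25.2 and 27.7 CPM at 0 h, and its changes of -0.23, -0.10 and -0.18 did not pass. Between 24 and 48 h Myc did fall, from 30.9 and 32.1 to 22.3 and 22.7 CPM (-0.48 ± 0.10, adjusted p = 0.000138), 1 of 7 genes of the network that changed over that step, in which 54.1% of all genes did. In a fit that includes the reads outside genes that fall was not called (-0.26, adjusted p = 0.198).

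Mxd4 fell at 48 h of Gata6 degradation, to 32.7 and 33.5 CPM from 44.1 and 49.5 CPM at 0 h (-0.50 ± 0.11, adjusted p = 0.000573), and did not pass at 72 or 96 h. Max was lower at 48 h (-0.25), 72 h (-0.25) and 96 h (-0.19, adjusted p = 0.0261, but 0.0676 with median-of-ratios scaling), and each of these calls was lost without the second 0 h library (adjusted p from 0.165 to 0.426). In all, 5 genes changed at 72 h (39.6% of all genes) and 5 at 96 h (40.3%). Reads outside annotated genes moved with these times, at 5.66 and 6.11 per 100 gene reads at 0 h and 7.01 to 8.15 at 48 to 96 h. With that ratio in the fit the 48 h calls of Mxd4 (-0.19, adjusted p = 0.197) and Max (-0.15, adjusted p = 0.187) were lost, and those of Mycn, Mycl, Mxi1 and Mnt were kept.

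**Figure D3:**
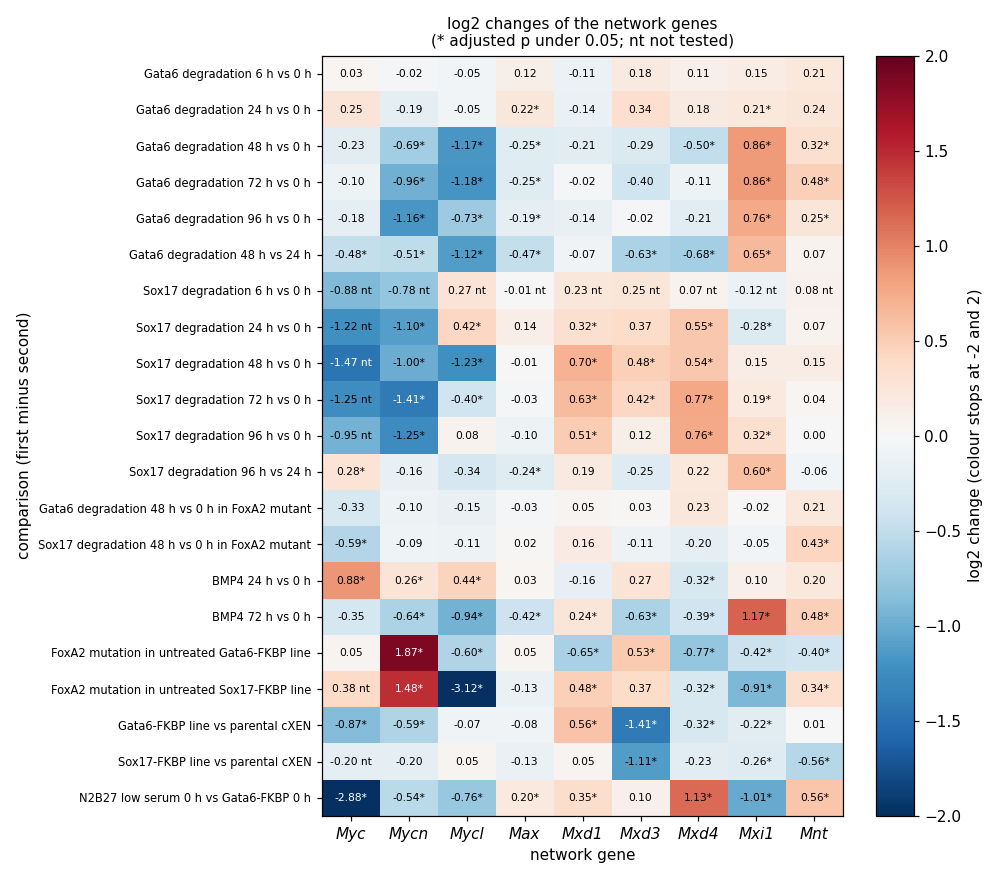
log2 changes of the 9 genes (columns) in 21 comparisons (rows, first group minus second). An asterisk marks an adjusted p under 0.05, nt marks values that were not tested, and the colour scale stops at -2 and 2. Mycn is positive only in the FoxA2 mutation rows and at 24 h of BMP4 among its called values.

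The 48 h responses to Sox17 and to Gata6 degradation were set against each other in 1 contrast, in which 17.1% of all genes differed. Of the 8 genes tested, 4 differed. Mxd4 (1.035 ± 0.15, Sox17 minus Gata6 response, adjusted p = 1.28e-05), Mxd1 (0.91 ± 0.14, adjusted p = 1.8e-05) and Mxd3 (0.77 ± 0.26, adjusted p = 0.0395) responded more positively to Sox17 degradation, and Mxi1 (-0.71 ± 0.10, adjusted p = 7.02e-06) more positively to Gata6 degradation. The Mxd3 difference was lost when any of 6 of the 8 libraries was left out (adjusted p from 0.0761 to 0.216) and when reads outside genes were a covariate (0.209). For Myc the difference was -1.24 and was not tested, because it uses the Sox17-FKBP 0 h libraries. For Mycn the responses were -0.995 and -0.695 and for Mycl -1.23 and -1.17, and neither difference passed.

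Untreated FoxA2-/- cells differed from untreated cells of the same tagged line. In the Gata6-FKBP line 7 of the 9 genes changed (48.3% of all genes), and in the Sox17-FKBP line 6 of the 8 tested (50.6%). The summed primitive endoderm markers differed too, at 17230 and 17540 CPM in the Gata6-FKBP mutant against 30230 and 32420 CPM (1 of 10 higher and 8 lower), and at 21200 and 21160 CPM in the Sox17-FKBP mutant against 24940 and 24590 CPM (2 higher and 7 lower). The trophoblast sum was 4.58 and 5.38 CPM in the Gata6-FKBP mutant against 0.234 and 0.0640 CPM. The part of these markers was not tested, and the mutation and the clone cannot be told apart. Mycn rose 3.65-fold in the Gata6-FKBP line, from 58.5 and 66.9 CPM to 225.9 and 231.1 CPM (log2 1.87 ± 0.10, adjusted p = 6.15e-15), and 2.80-fold in the Sox17-FKBP line, to 228.8 and 231.3 CPM (1.48 ± 0.10, adjusted p = 2.22e-13). Mycl fell in both lines, by 0.60 on the log2 scale in the Gata6-FKBP line (adjusted p = 0.00404), with a change of -3.12 ± 0.19 in the Sox17-FKBP line (adjusted p = 2.67e-14), where it went from 7.92 and 8.44 to 0.895 and 0.970 CPM. Mxd3 rose by 0.53 in the Gata6-FKBP line (adjusted p = 0.0196), a call lost without replicate 1 of 0 h (0.208) or of the mutant (0.0787). The smaller fall of Mycl was lost without replicate 2 of the Gata6-FKBP 0 h group (adjusted p = 0.0525) or of the mutant (0.064).

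Mxd4 and Mxi1 were lower in both mutants. Mxd4 fell by 0.77 on the log2 scale in the Gata6-FKBP line (28.7 and 26.3 CPM in the mutant) and by 0.32 in the Sox17-FKBP line, where the call was lost without replicate 2 of 0 h (adjusted p = 0.112) or of the mutant (0.062). Mxi1 fell by 0.42 in the Gata6-FKBP line and by 0.91 ± 0.07 in the Sox17-FKBP line (adjusted p = 9.48e-12), from 66.8 and 67.4 to 35.6 and 36.0 CPM. Mxd1 and Mnt moved in opposite directions in the lines, Mxd1 falling by 0.65 in the Gata6-FKBP line and rising by 0.48 in the Sox17-FKBP line, and Mnt falling by 0.40 and rising by 0.34. The difference between the lines was not tested. Myc was 28.3 and 26.4 CPM in untreated Gata6-FKBP;FoxA2-/- cells (change 0.05, not passing), and in the Sox17-FKBP line its change was 0.38 and was not tested.

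Within the FoxA2-/- lines, 48 h of degradation changed few genes of any kind. In Gata6-FKBP;FoxA2-/- cells 0.239% of all genes changed (0.164% higher and 0.0752% lower), and none of the 9 did by edgeR or by DESeq2, with unadjusted p under 0.05 for 3, Myc, Mxd4 and Mnt. In Sox17-FKBP;FoxA2-/- cells 2.76% of all genes changed (1.52% higher and 1.23% lower), among them Myc and Mnt. Myc fell from 51.4 and 57.7 CPM to 34.96 and 37.6 CPM (-0.59 ± 0.09, adjusted p = 0.000141), with no overlap. These libraries are not in the contrast that chose the list, but the list was made with earlier results of these data known. Leaving out each of these libraries in turn gave changes of Myc from -0.50 to -0.67. Mnt rose from 38.1 and 40.4 to 52.0 and 53.7 CPM (0.43 ± 0.09, adjusted p = 0.00319), a call lost without replicate 1 of 0 h (adjusted p = 0.0767) or replicate 2 of 48 h (0.056). Mycn remained high, at 219.5 and 213.0 CPM, and Mycl low, at 0.719 and 1.00 CPM, and neither passed.

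**Figure D4:**
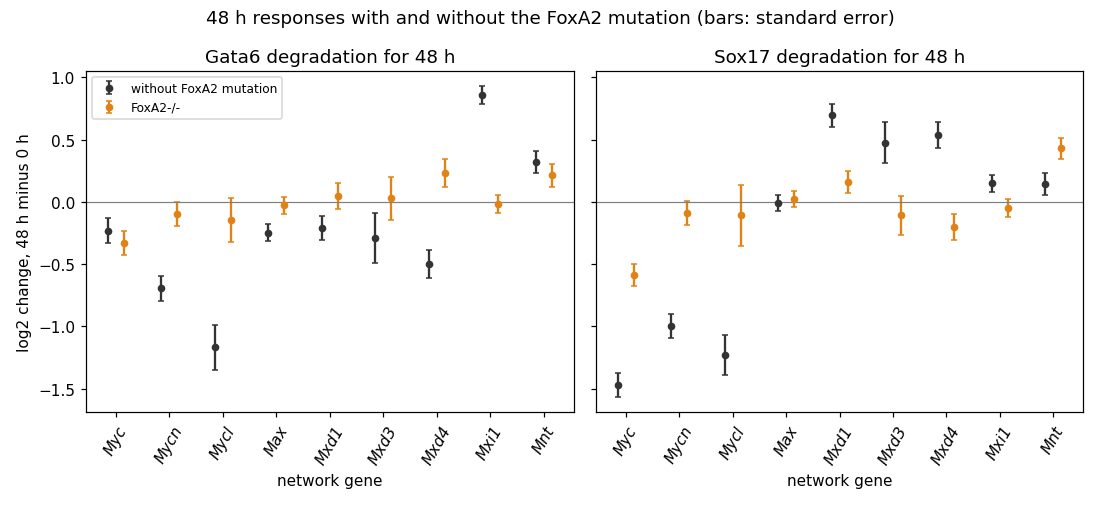
log2 changes at 48 h of degradation against 0 h for the 9 genes, without the FoxA2 mutation (black) and in FoxA2-/- cells (orange), for Gata6 (left) and Sox17 (right). Bars are standard errors of the fitted change. In the left plot Mxi1 is at 0.86 without the mutation and at -0.02 with it, and in the right plot Myc lies below 0 in both.

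The test of the difference between mutant and non-mutant responses found 4 of 9 genes for Gata6 (27% of all genes) and 4 of the 8 tested for Sox17 (14.4%). For Mxi1 the response to Gata6 degradation was -0.02 in the mutant and 0.86 without it, a difference of -0.87 ± 0.10 (mutant minus non-mutant, adjusted p = 2.7e-07). Mycn differed by 0.60 ± 0.14 for Gata6 (adjusted p = 0.00191) and by 0.91 ± 0.14 for Sox17 (adjusted p = 2.6e-05), Mycl by 1.02 and 1.12, and Mxd4 by 0.73 and -0.74. For Sox17 the Mycl value rests on few reads. The mutant libraries held 27 and 42 reads of Mycl at 0 h and 25 and 40 at 48 h, which leaves little room to see a fall. Mxd1 differed for Sox17 (-0.54 ± 0.13, adjusted p = 0.00407). Leaving out the second 48 h library of the mutant ended the Mycl call for Gata6 (adjusted p = 0.0519) and for Sox17 (0.154), and leaving out the second Sox17-FKBP 48 h library ended that of Mxd1 (0.0514). The Mxd4 difference for Gata6 was 0.37 and no longer called (adjusted p = 0.0692) when the fit included reads outside genes. For Myc the difference was -0.10 for Gata6 (adjusted p = 0.658) and, untested, 0.88 for Sox17. Between both mutants no gene of the 9 differed in its 48 h response by edgeR or by DESeq2, 1.59% of all genes did, and Mxd4 alone had an unadjusted p under 0.05. The difference for Myc was -0.26 ± 0.13 (adjusted p = 0.545).

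The BMP4 series started from a different state. Its 0 h cells, in N2B27 with 1% serum, held Myc at 3.24 and 3.89 CPM against 25.2 and 27.7 CPM in the Gata6-FKBP 0 h cells in 15% serum, a log2 change of -2.88 ± 0.12 (adjusted p = 4.9e-16). In this comparison 8 of 9 genes changed (41.5% of all genes). Mxd4 was higher (1.13 ± 0.11, 100.0 and 104.3 CPM), as was Mnt (0.56 ± 0.09, 69.3 and 66.3 CPM), and Mxi1 was lower (-1.01 ± 0.07, 34.5 and 34.3 CPM). Mycn and Mycl were lower by 0.54 and 0.76 on the log2 scale, and Max (0.20) and Mxd1 (0.35) were slightly higher, calls that were each lost without replicate 2 of the N2B27 group (adjusted p = 0.142 and 0.081) or replicate 1 of the Gata6-FKBP 0 h group (0.375 and 0.0818). Medium, serum, gelatin, experiment and, if the titles are right, cell line cannot be told apart here.

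After 24 h of BMP4, Myc rose to 5.60 and 7.65 CPM (0.88 ± 0.14, adjusted p = 2.12e-05), with both libraries above those of 0 h. No group without BMP4 was sampled at 24 or 72 h, and serum was removed when BMP4 was added. In all comparisons of these times with 0 h, here and below, BMP4, serum removal and time cannot be told apart. The variance between the BMP4 libraries at 24 h was 57.3 times that of counting. The rise of Myc was 1.09 without the first and 0.63 without the second (adjusted p = 6.58e-07 and 0.00769), but with the spread estimated from the BMP4 24 h and 0 h libraries alone the adjusted p was 0.10. In all, 4 of 9 genes passed (43.6% of all genes). Mycn (0.26) and Mycl (0.44) rose and Mxd4 (-0.32) fell, and each call was lost without certain libraries, Mycn without any 1 of the 4 (adjusted p from 0.0596 to 0.19), Mycl (0.391 and 0.478) and Mxd4 (0.085 and 0.135) without replicate 2 of 0 h or replicate 1 of 24 h.

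At 72 h of BMP4, 8 of the 9 genes changed, in a comparison in which 62.8% of all genes did. Mxi1 rose from 34.5 and 34.3 to 74.8 and 80.3 CPM (1.17 ± 0.07, adjusted p = 2.39e-13). Mnt reached its highest level of the series, 92.9 and 96.2 CPM (0.48 ± 0.09, adjusted p = 2.58e-05). Mycn fell to 28.1 and 27.2 CPM (-0.64 ± 0.10), Mycl to 1.93 and 2.63 CPM (-0.94 ± 0.20) and Max to 80.0 and 78.3 CPM (-0.42 ± 0.07). Mxd3 (-0.63) and Mxd4 (-0.39) fell and Mxd1 rose (0.24, adjusted p = 0.0268), and Myc at 2.84 and 2.77 CPM did not pass (-0.35 ± 0.16). In single-library checks the call of Mxd1 was lost without replicate 1 of 0 h or either 72 h library (adjusted p from 0.0691 to 0.216) and that of Mxd3 without replicate 2 of 72 h (0.0662). Reads outside genes stood at 10.5 and 10.3 per 100 gene reads at 72 h against 5.64 and 5.69 at 0 h, the highest of the series. With that ratio as a covariate 3 of the 8 calls were kept, and Mxd3 (0.41) and Mxd4 (0.28) changed sign.

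Against the parental cells, the tagged lines differed in 6 of 9 genes (Gata6-FKBP, 47.8% of all genes) and in 3 of the 8 tested (Sox17-FKBP, 57.1%). Mxd3 stood out in both, at 16.3 and 20.2 CPM in the parental cells against 6.11 and 7.64 CPM in the Gata6-FKBP line (-1.41 ± 0.18, adjusted p = 1.51e-07) and 8.52 and 8.32 CPM in the Sox17-FKBP line (-1.11 ± 0.16, adjusted p = 1.18e-06). Myc was lower in the Gata6-FKBP line (-0.87 ± 0.10, adjusted p = 1.67e-08), as was Mycn (-0.59), while Mxd1 was higher (0.56). The change of Myc in the Sox17-FKBP line was -0.20 and was not tested. Mnt was lower in the Sox17-FKBP line (-0.56 ± 0.09). The counts also hold lower Mxd4 and Mxi1 in the Gata6-FKBP line and lower Mxi1 in the Sox17-FKBP line. With the spread from the libraries compared alone these calls were lost (-0.32, -0.22 and -0.23, adjusted p = 0.0692, 0.155 and 0.0667). With reads outside genes as a covariate the Mxd4 change was -0.03 (adjusted p = 0.807). Without replicate 1 of the parental cells the Mxi1 changes were -0.12 and -0.14. The sum of the fibroblast list given with the libraries, mostly collagen genes, was highest in the parental cells, and its part in these differences was not tested.

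Genes known as MYC targets were then read beside the network, as counts and medians next to those of all genes. The list for ribosome biogenesis held 24 genes, all measured, among them Fbl, which methylates ribosomal RNA, and Bop1 and Grwd1, which build the large subunit. At 48 h of Gata6 degradation 23 fell and none rose (median log2 change -0.89, against 0 for all genes, of which 21.9% fell). At 48 h of Sox17 degradation all 24 fell (median -0.84, against 0.02 for all genes, of which 14.6% fell). Fbl fell by 1.03 and by 0.98 on the log2 scale (adjusted p = 3.62e-09 and 1.31e-08), and Grwd1 by 1.40 and by 0.94. Bop1 fell by 1.26 with Gata6 loss, and Polr1b, a subunit of RNA polymerase I, by 0.94 with Sox17 loss. Left-out libraries moved these counts to 19 to 24 and to 23.

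At 72 and 96 h, 24 and 21 genes were down with Gata6 loss (21.9% and 22.1% of all genes) and 24 at both times with Sox17 loss (15% and 17.2%). At 24 h of Sox17 loss 23 fell (median -0.46, with 13% of all genes lower), though 15 without replicate 2 of 24 h and 7 when the spread came from the Sox17 24 h and 0 h libraries alone. At 24 h of Gata6 loss 6 fell (median 0.105, against 0.03 for all genes, of which 14.3% fell). At 6 h of Gata6 loss 6 fell as well, namely Ncl, Npm1, Nop58, Ddx21, Gnl3 and Dkc1, named after their values were seen, and none did without replicate 1 of 0 h or of 6 h. Of all genes 10.4% fell at 6 h of Gata6 loss. In both courses the summed proliferation list fell too, with Gata6 loss from 2964 and 2820 CPM at 0 h to 2287 and 2359 CPM at 48 h and with Sox17 loss from 2705 and 2633 to 2255 and 2314 CPM. Its part was not tested.

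In the FoxA2-/- lines none of the 24 changed at 48 h of either degradation by edgeR, with 2 down at an unadjusted p under 0.05 for each, and DESeq2 called none for Gata6 and 1 for Sox17. Of all genes only 0.239% changed with Gata6 loss and 2.76% with Sox17 loss, so a list of 24 with no call is near those shares. The list medians were 0.01 with Gata6 loss and -0.105 with Sox17 loss, against 0 and -0.01 for all genes. The difference between mutant and non-mutant responses passed for 19 of the 24 for Gata6 and for 22 for Sox17, all positive, against 16.1% and 6.9% of all genes. In untreated mutants 16 were higher and none lower in the Gata6-FKBP line (median 0.34, with 24.6% of all genes higher and 23.7% lower). In the Sox17-FKBP line 1 was higher and 10 lower (median -0.17, with 26% and 24.6% of all genes), and 6 were lower when replicate 1 of the mutant was left out. Mycn was higher in both lines.

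With BMP4, 13 rose and 4 fell at 24 h (median 0.22), when 21.3% of all genes rose and 22.2% fell. At 72 h 3 rose and 19 fell (median -0.93), when 31.6% of all genes rose and 31.2% fell. Without replicate 2 of BMP4 24 h 4 rose and none fell, and with the spread from the 4 libraries compared none passed. Both checks are of the 24 h counts. With the spread from the BMP4 72 h and 0 h libraries alone, 5 rose and 19 fell at 72 h. At 72 h Grwd1 (-1.63) and Fbl (-1.496) showed the largest falls, and Npm1 (0.85), a nucleolar chaperone, and Nop58 (0.72), a core protein of box C/D small nucleolar complexes, the largest rises. With reads outside genes as a covariate, 17 fell and none rose at 72 h. In N2B27 with 1% serum, where Myc was lowest at 0 h, 14 of the 24 were lower than in the Gata6-FKBP 0 h cells and none higher (median -0.34), against 21.4% of all genes lower and 20.1% higher.

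**Figure D5:**
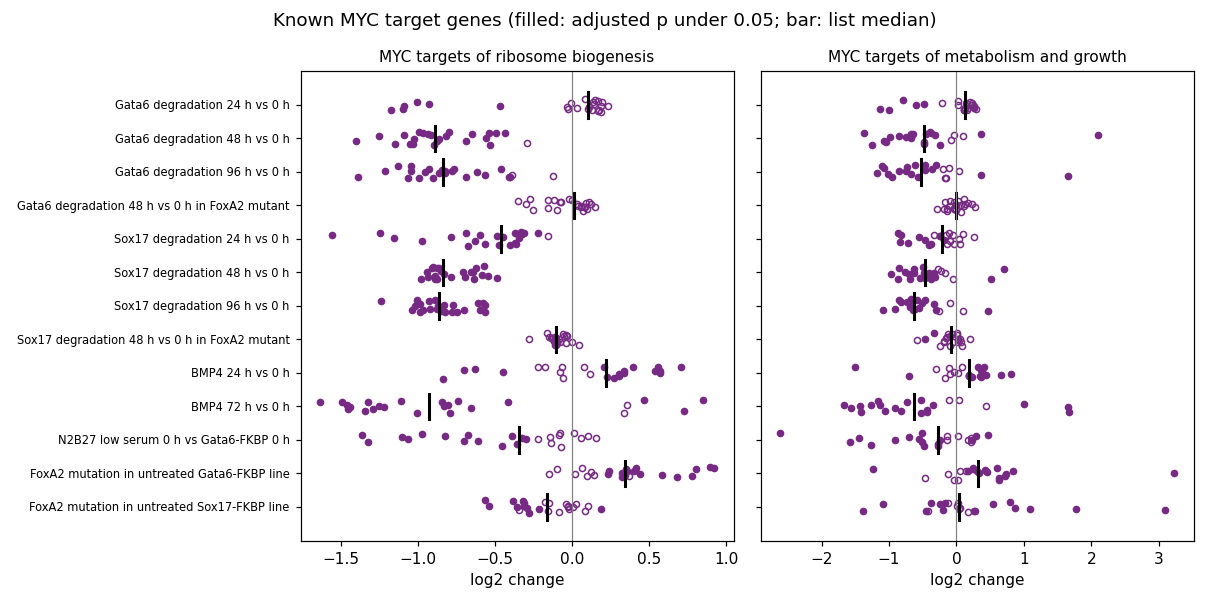
log2 changes of the genes in the ribosome biogenesis list (left, 24 genes) and the metabolism and growth list (right, 22 genes) in 13 comparisons. Points are genes, filled where the adjusted p is under 0.05, and bars are list medians. Medians lie at -0.89 and -0.84 for the 48 h degradations without the FoxA2 mutation and at 0.01 and -0.105 with it, for ribosome biogenesis.

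The list of 22 MYC targets of metabolism and growth was more mixed. In this and the following lists, the shares of all genes to read beside the counts are 18.2% up and 21.9% down at 48 h of Gata6 loss, 16.3% and 14.6% at 48 h of Sox17 loss, and 31.6% and 31.2% at 72 h of BMP4. At 48 h 2 rose and 16 fell with Gata6 loss (median -0.48) and the same numbers with Sox17 loss (median -0.47). Slc19a1, a folate transporter, fell by 1.37 and 0.98, Srm, which makes spermidine, by 1.25 with Gata6 loss, and Pa2g4, a growth-regulated RNA-binding protein, by 0.86 with Sox17 loss. Ccnd2, which encodes cyclin D2, rose by 2.10 and 0.71 on the log2 scale, and Ldha, lactate dehydrogenase A, by 0.36 and 0.52. At 48 h in Sox17-FKBP;FoxA2-/- cells, where 1.23% of all genes fell, 2 of the 22 fell. These were Odc1, which makes putrescine (-0.34 ± 0.07, adjusted p = 0.00373), and Prps2, of nucleotide synthesis (-0.47 ± 0.10, adjusted p = 0.00371). Neither was called without replicate 2 of 0 h or replicate 1 of 48 h. At 72 h of BMP4 3 rose and 16 fell (median -0.63), with Nme1 (-1.67) and Srm (-1.56) the largest falls and Ccnd2 (1.67) and Tert (1.65), the telomerase catalytic subunit, the largest rises. With reads outside genes as a covariate 2 rose and 12 fell. For the lists that follow no count with that covariate was made, so their values at 72 h of BMP4 carry the same limit.

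A list drawn up for repression by MYC with MIZ1 held 8 genes, of which 7 were measured. Whether MYC represses each of them was not tested, so the counts may mix genes with different relations to MYC. At 48 h 2 rose and 2 fell with Gata6 loss, and 3 rose and 1 fell with Sox17 loss, against 40.1% and 30.9% of all genes changed. Ndrg1, a gene of growth arrest and differentiation, rose by 2.07 ± 0.12 and 2.25 ± 0.12 (adjusted p = 2.34e-13 and 3.9e-14), and Cdkn1b, which encodes the cell cycle inhibitor p27, by 0.52 and 0.41. Cdkn2a fell in both (-0.38 and -0.70), and Cdkn1a, the p21 gene, fell with Gata6 loss (-0.50). At 72 h of BMP4 4 rose and 1 fell, Cdkn1c, the p57 gene, by 3.99 ± 0.19 (adjusted p = 5.47e-16) and Gadd45a by 1.37, with Cdkn2b lower (-0.48). None of the 7 changed in either FoxA2-/- line by edgeR at 48 h, with 1 at an unadjusted p under 0.05 with Sox17 loss and none with Gata6 loss. Of all genes only 2.76% and 0.239% changed in these comparisons, so no call among 7 is near those shares.

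Of 12 MYC cofactors, 1 rose and 8 fell at 48 h of Gata6 loss (median -0.36) and 5 fell at 48 h of Sox17 loss (median -0.15), beside 40.1% and 30.9% of all genes changed in either direction. Kat2a, the GCN5 acetyltransferase, fell by 0.98 and 0.86, and the ATPase genes Ruvbl1 and Ruvbl2 led the falls beside it, at -0.96 with Gata6 loss and -0.67 with Sox17 loss. Of 10 corepressor genes of MXD and MNT, 3 rose and 3 fell with Gata6 loss, and 1 rose and 1 fell with Sox17 loss, the latter below the 30.9% of all genes changed. Rbbp7, a histone-binding subunit, rose by 0.64 and 0.42, and Hdac1 fell by 0.45 and 0.22. At 72 h of BMP4 Rbbp7 rose by 1.52 and Arid4b by 2.85, and Sap18 and Rbbp4 fell by 0.79 and 0.72.

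Of 10 genes that act on MYC protein stability, 2 rose and 4 fell at 48 h of Gata6 loss, and 1 rose and 4 fell with Sox17 loss, beside the same 40.1% and 30.9%. Aurka, a mitotic kinase that stabilises MYCN, fell by 1.26 and 0.53, and Usp28, a deubiquitinase that stabilises MYC, rose by 0.49 and 0.42. At 72 h of BMP4 5 rose and 4 fell, with 62.8% of all genes changed and Usp28 at 1.39. Of the wider network 3 of 4 genes were measured. Mlx, the MAX-like partner of the glucose-sensing MLXIP proteins, fell by 0.24 on the log2 scale with Gata6 loss and by 1.20 at 72 h of BMP4, when Mga, which also pairs with MAX, rose by 1.95 ± 0.33 (adjusted p = 9.59e-06).

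Other genes were ranked by the likeness of their pattern to each of the 9, by Pearson's r of mean log2 CPM over the 20 groups among 9563 genes. Groups share lines and controls, so r is a description. Ripk2 (0.89), Fam198b (0.89), Stambpl1 (0.87), Thoc7 (0.86) and Fam206a (0.85) were most like Myc, and Dkk1 (0.96) and Ube2d1 (0.95) most like Mycn. Zfp706 (0.93) and Ube2j1 (0.90) were most like Mycl, Tmem132a (0.95) and Psmg3 (0.95) most like Max, and Gigyf1 (0.96) and Rbm47 (0.94) most like Mnt. For the MXD genes these were Brpf3 (0.88) and Dhtkd1 (0.87) for Mxd1, Dcxr (0.90) and Pidd1 (0.86) for Mxd3, Ptms (0.94) and Sec31a (0.93) for Mxd4, and Zfp839 (0.93) and Fut8 (0.91) for Mxi1. Among the 9 genes themselves the r of highest size was -0.69, between Myc and Mxd1, and that of Myc with Mycn was 0.50.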

How the data were processed

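RNA-seq of 40 libraries was used, and 14 chromatin samples of the series were not analysed here. Per the labels' protocols, libraries were made from total RNA. The authors deposited raw read counts per Ensembl gene for each library; per the submitters' processing notes, HISAT2, HTSeq and mm10 were used. Versions, annotation release and strand setting are not given in the sources used here.

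Libraries held 16.2 to 42.5 M gene reads. Genes passing edgeR's filterByExpr (14625) were fitted together over all 40 libraries (edgeR 4.0.16 quasi-likelihood test, R 4.3.3, TMM scaling, 1 mean per group, 20 residual degrees of freedom), with Benjamini-Hochberg adjustment over all genes of a comparison and a threshold of 0.05. Standard errors were derived from each fitted change and its F statistic. The script was tested on simulated data. Other settings tried were size factors by median of ratios, all genes unfiltered, a replicate block, reads outside genes as a covariate, only the libraries compared, DESeq2 1.42.0, and leaving out each library. Same-numbered replicates did not deviate together in a steady way, so the block is an alternative. The r of their deviations ran from -0.59 to 0.49 in 21 comparisons, above 0.1 in 5 and below -0.1 in 7.

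The members and gene lists were chosen with earlier results of these data known. No member was tested at 6 h of Sox17 degradation, nor Myc in comparisons with the Sox17-FKBP 0 h libraries. Named list genes are the 2 called genes with the largest rise and the 2 with the largest fall at 48 h of each degradation, at 48 h of Sox17 degradation in FoxA2-/- cells and at 72 h of BMP4; some are given for both degradations. Levels per kilobase could not be given without exon lengths.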

Additional observations from a re-analysis of the deposited data

Results flagged for a closer look

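In 12 results the response of a gene differed between lines or genotypes by a test of the difference itself (edgeR's quasi-likelihood test with Benjamini-Hochberg adjustment). Between FoxA2-/- and non-mutant cells, the 48 h response to Gata6 degradation differed by 0.60 for Mycn (adjusted p = 0.00191), 1.02 for Mycl (0.00313), 0.73 for Mxd4 (0.00081) and -0.87 for Mxi1 (2.7e-07). The response to Sox17 degradation differed by 0.91 for Mycn (2.6e-05), 1.12 for Mycl (0.00985), -0.54 for Mxd1 (0.00407) and -0.74 for Mxd4 (0.000756). For that Mycl value the mutant libraries held only 25 to 42 reads of the gene, which leaves little room to see a fall. Between Sox17 and Gata6 degradation without the mutation, the 48 h responses differed by 0.91 for Mxd1 (1.8e-05), 0.77 for Mxd3 (0.0395), 1.035 for Mxd4 (1.28e-05) and -0.71 for Mxi1 (7.02e-06). All are log2 differences, with 2 libraries in each group. No explanation was tested. Groups of 2 are too small for a check of single outlying libraries.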

How the results depend on the processing

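Counts of network genes called moved by more than 1.5 times under these settings. At 24 h of Gata6 degradation, 2 became 4 with DESeq2, 3 with median-of-ratios scaling or the replicate block, 1 with the covariate of reads outside genes and 0 with no filter or only the libraries compared. With no filter the counts were 3 at 96 h of Gata6 degradation, 3 at 24 h of Sox17 degradation, 1 for Sox17 96 h against 24 h and 2 at 24 h of BMP4. With only the libraries compared they were 3, 1, 1 and 0, and the Sox17 difference by FoxA2 genotype rose from 4 to 7. With the covariate they were 4 for Gata6 48 h against 24 h and 3 at 72 h of BMP4. The covariate reversed Mxd3 at 72 h of BMP4 (0.41), at Gata6 48 h against 24 h (0.051) and at 96 h of Gata6 degradation (0.51), and Mxd4 at 72 h of BMP4 (0.28). The cause was not tested. With the replicate block 223 of 225 values stayed the same. For tested values this means the same side of the threshold, and for values not tested a change within 1 standard error. Mycl at 24 h of BMP4 was lost (adjusted p = 0.0521) and Mnt at 24 h of Gata6 degradation passed (0.0488). Leaving out 1 library gave 0 to 2 at 24 h of Gata6 degradation, 3 to 6 at 24 h and 3 at 72 h of Sox17 degradation, and 1 to 3 at 24 h of BMP4. Counts for the MYC target lists without each library were added after seeing the data.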
